A study of Mus musculus with 4 samples.

Results

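The genes of the cytosolic translation initiation and elongation factors were followed in mouse leukaemic cells. They were taken by name, as the rows of the expression table that start with Eif or Eef and a digit. Kinases of eIF2 (Eif2ak1 to Eif2ak4), pseudogene rows and the sex-linked Eif2s3x, Eif2s3y and Eif1ax were left out. This gave 58 genes of 24497 mouse genes in the table, 48 of them Eif and 10 Eef genes. Of these, 55 reached the minimum of 1 TPM in at least 2 libraries and were tested, among 11919 genes tested in all.

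The cells came from haematopoietic stem cells of bone marrow of Tet2-/- or wild-type (WT) mice, transformed with NRAS and AE9a, which is a shortened AML1-ETO. Both groups were labelled as carrying these oncogenes, after culture with SCF, IL-3, IL-6, G418 and puromycin. Recipients of 6 to 8 weeks with CD45.1, irradiated with 900 cGy, received the cells, and CD45.2 cells were enriched from their spleens. CD45.2 is the donor variant of the leukocyte protein CD45, and enrichment may leave some cells of the host. Of the libraries, 2 were labelled Tet2 KO and 2 WT. The labels give no details of the Tet2 allele. Nor do they say if replicates were different animals, so p-values cover just the spread among libraries, possibly a technical one.

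Translation starts when eIF2, loaded with GTP and initiator tRNA, joins the small ribosomal subunit with eIF1, eIF1A, eIF3 and eIF5. The cap-binding complex eIF4F, made of eIF4E, eIF4G and the helicase eIF4A, brings in the mRNA, and 4E-binding proteins block eIF4E until the kinase mTORC1 phosphorylates them. During elongation eEF1A delivers aminoacyl-tRNA, eEF1B reloads it with GTP, and eEF2 moves the ribosome along the mRNA. Messages of elongation factors and some initiation factors begin with a terminal oligopyrimidine (TOP) tract, through which mTORC1 controls their translation. In some acute myeloid leukaemias eIF4E is known to be raised.

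Values are TPM, transcript abundance per unit of length scaled to a fixed total per library, so levels can be compared between genes. Estimated depth was 21.9 to 27.7 M reads (M is 10 to the power 6). The variances compared next are robust estimates from the median absolute deviation, in which outlying genes have little part. Between the WT libraries the variance was 1.10 times that of read sampling (1970 genes, 16 of them beyond 5 SD; 1.95 times for the 5% with the most reads), against 5.73 times between those labelled Tet2 KO (2096 genes, 307 beyond 5 SD; 397 times for the 5% with the most reads). The WT libraries were therefore counted as 1 sample, which gives n = 2 for Tet2 KO and n = 1 for WT, with all spread from the Tet2 KO side. Tet2 had 63.7 and 68.1 TPM in libraries labelled Tet2 KO, against 43.5 and 43.7 TPM in WT libraries (log2 change 0.58 ± 0.19, limma adjusted p = 0.0171). It was thus not lower under the Tet2 KO label, although a whole-gene value would not show a deleted exon, and every direction below rests on the labels. Runx1t1, whose gene gives the ETO part of AE9a, had 146 and 205 TPM under the Tet2 KO label, against 31.6 and 30.9 TPM in WT (log2 change 2.43 ± 0.23, limma adjusted p = 1.23e-06). Xist, expressed from the inactive X chromosome, had 86.0 and 28.2 TPM under the Tet2 KO label, against 0.34 and 0.34 TPM in WT (limma adjusted p = 0.102), and the Y-linked Eif2s3y 29.8 and 90.4 TPM under the Tet2 KO label, against 107 and 107 TPM in WT (limma adjusted p = 0.622). The libraries thus differed in sex-linked RNA, also between those labelled Tet2 KO, and the part of this in the results was not tested. Ptprc, which encodes CD45, had 413 and 396 TPM under the Tet2 KO label, against 292 and 296 TPM in WT.

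Other measures differed between the groups as well. ERCC spike-in RNAs took 2.95% and 3.19% of TPM under the Tet2 KO label, against 4.66% and 4.62% in WT, and the labels do not say how they were dosed. Rn45s, a ribosomal RNA precursor, had 1342 and 2984 TPM under the Tet2 KO label, against 9227 and 8942 TPM in WT (log2 change -2.18 ± 0.48, limma adjusted p = 0.00657), with replicate 2 nearer to WT. Scaling each library to its ERCC total put the median log2 change over all genes at 0.43, against -0.12 on the TPM scale, a shift of 0.55, so both scales are given below. Marker genes were called by limma at an adjusted p under 0.05, where 22.1% of all genes tested were higher and 26.7% lower. Of 12 neutrophil granule genes 11 were higher, and the 12 summed to 107229 and 85988 TPM under the Tet2 KO label, against 1659 and 1696 TPM in WT. Of 9 myeloid markers 6 were higher and 1 lower, with sums of 9305 and 7759 TPM under the Tet2 KO label, against 4377 and 4384 TPM in WT. Of 6 tested red pulp macrophage genes 4 were lower, and the list of 7 summed to 1170.0 and 1453 TPM under the Tet2 KO label, against 2895 and 2930 TPM in WT. Summed markers of T cells (6 genes), B cells (5 genes) and NK cells (3 genes, Ncr1 listed at 0 in all) were 9.31 TPM at most. Of 2 tested B cell genes 1 was higher and 1 lower. The 1 tested NK cell gene was lower, and 0 of 3 tested T cell genes were called. Of 5 tested erythroid markers 4 were higher, and the list of 7 summed to 37.5 and 78.4 TPM under the Tet2 KO label, against 12.4 and 10.8 TPM in WT, with Hbb-bs listed at 0 in all. Markers of stroma and endothelium (5 genes, of which 2 were tested and both were higher) summed to 79.2 and 76.8 TPM under the Tet2 KO label, against 52.9 and 52.5 TPM in WT. In bulk RNA, fewer cells of a type and less RNA per cell cannot be told apart. The part of these measures in the results below was not tested.

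Among translation factor transcripts falls were far more frequent than rises. Of the 55 tested, 24 fell and 2 rose in libraries labelled Tet2 KO, by limma at an adjusted p under 0.05. Of all 11919 genes tested 48.8% passed, with 26.7% lower and 22.1% higher. The members' median log2 change was -0.52, against -0.12 for all genes, and 42 of 55 had a negative change. With ERCC scaling the count turned round, to 7 lower and 15 higher (12.5% and 41.5% of all genes, 54% in all), at a median of 0.08 against 0.43 for all genes. Relative to the median gene the members' median was thus -0.40 on the TPM scale and -0.36 with ERCC scaling. Eif5a2 passed the filter on low values through WT alone and so had to differ. Without it 23 of 54 fell, at a median of -0.50, and with ERCC scaling 6 were lower, at a median of 0.09. These 6, lower on both scales, were Eef1g, Eef1d, Eef1e1, Eif2s2, Eif4e3 and Eif4ebp1, and the 2 that passed as higher on both were Eif4e2 and Eif4ebp2. With all 4 libraries as samples 35 members were lower and 6 higher, where 67.4% of all genes passed (37.9% lower and 29.5% higher). Without the filter on low values all 26 calls were lost, over 24497 rows that include genes listed at 0 throughout. The libraries of the 2 groups did not overlap for 50 of 55 members (90.9%), against 87% of all genes tested.

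**Figure D1:**
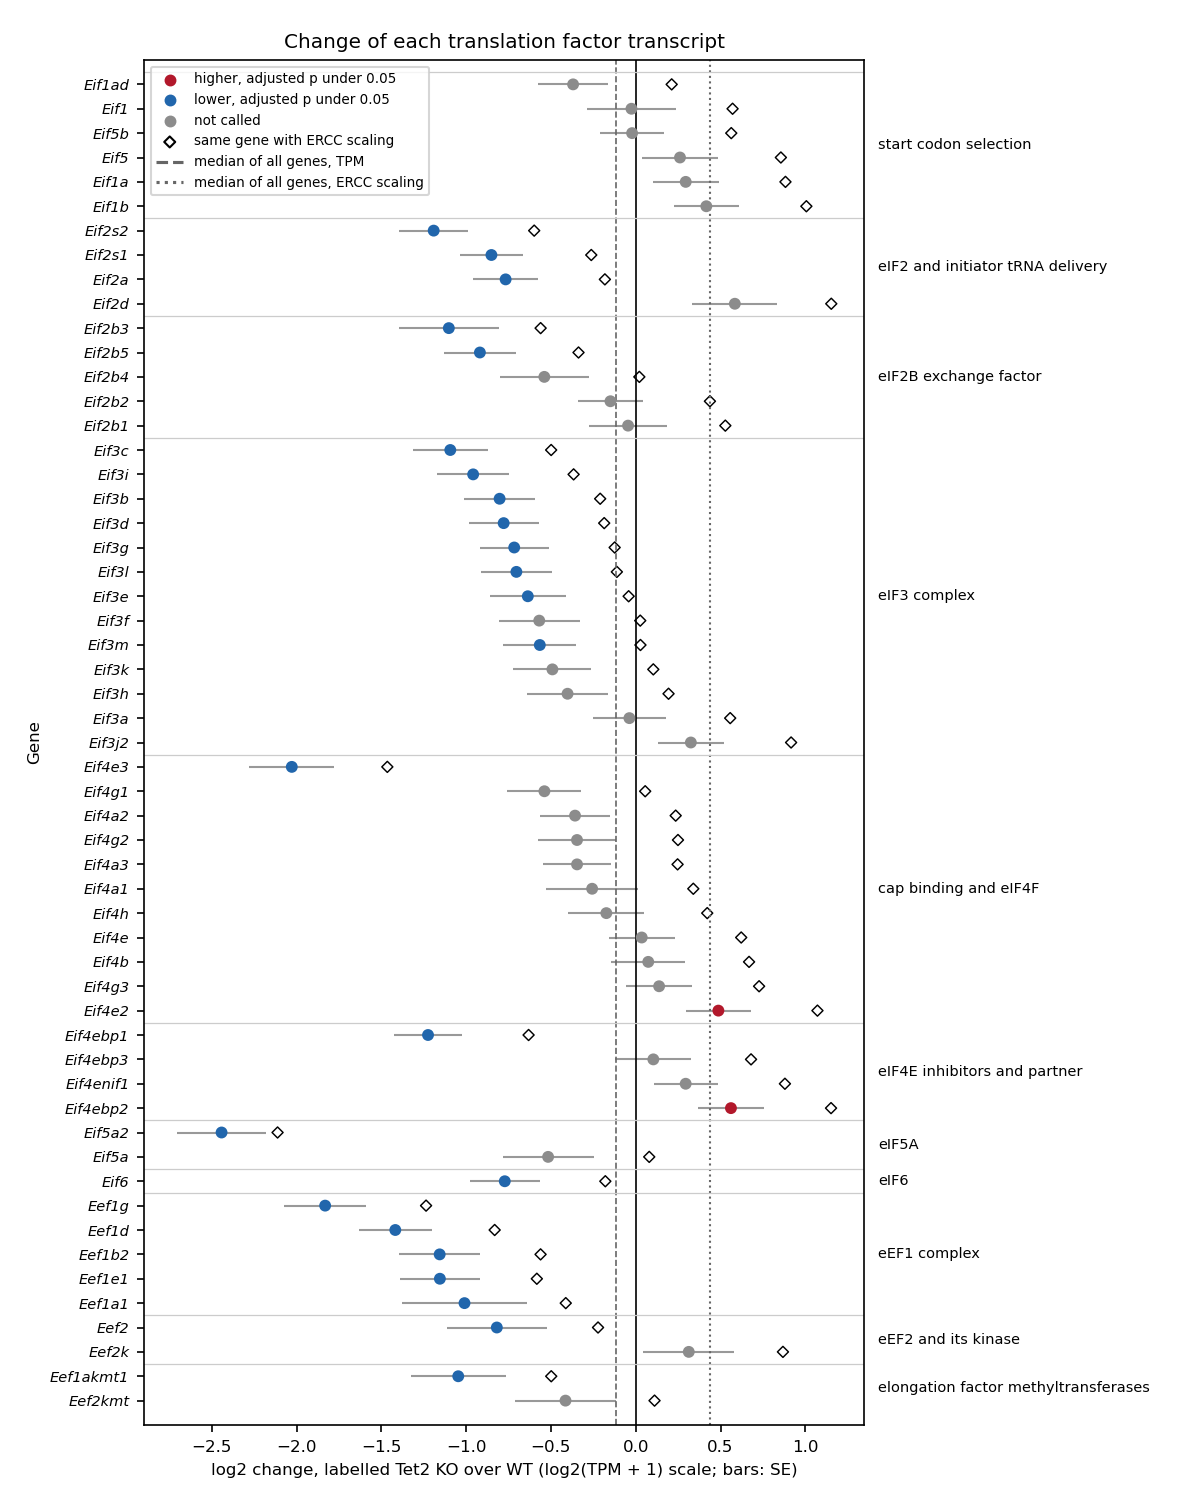
Log2 change of each tested translation factor gene, labelled Tet2 KO over WT, on the log2(TPM + 1) scale with its SE (filled points), grouped by role. Open diamonds give the same gene with ERCC scaling, and the vertical lines the median of all genes tested, -0.12 on the TPM scale and 0.43 with ERCC scaling; Eif5a2, Eif4e3 and Eef1g lie farthest to the left.

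Together the 58 genes made up 1.51% and 1.73% of TPM in the libraries labelled Tet2 KO, against 2.73% and 2.73% in WT. Eef1a1 alone gave more than any other member in every library. Without it the other 57 genes summed to 8679 and 9622 TPM in libraries labelled Tet2 KO, against 13145 and 13182 TPM in WT. Between the libraries labelled Tet2 KO, replicate 2 was above replicate 1 for 47 of 55 members and for 23 of the 24 that fell, against 65.2% of all genes tested. For those 23 replicate 2 thus lay nearer to WT, whereas for members above WT, such as Eif2d, a higher replicate 2 lay farther from it. The WT libraries showed no such order, with replicate 2 above replicate 1 for 27 of 55 members.

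Of 9 tested Eef genes 7 fell and 0 rose, at a median of -1.05, and with ERCC scaling 3 were lower and 1 higher, at a median of -0.50. Of 46 tested Eif genes 17 fell and 2 rose, at a median of -0.39, and with ERCC scaling 4 were lower and 14 higher, at a median of 0.20. The falls on both scales include Eif5a2, which had to differ. For comparison, 26.7% of all genes tested fell and 22.1% rose (12.5% and 41.5% with ERCC scaling). The GTPase eEF1A, which carries aminoacyl-tRNA to the ribosome, is encoded by Eef1a1 (chromosome 9, 78478449 to 78489151, minus strand, mm10) in most tissues. Eef1a1 stood at 6415 and 7683 TPM in libraries labelled Tet2 KO, against 14169 and 14105 TPM in WT libraries (log2 change -1.01 ± 0.37, limma adjusted p = 0.0333). Both libraries labelled Tet2 KO were thus below both WT libraries, but the groups did not overlap for 87% of all genes tested. With ERCC scaling the change of Eef1a1 was -0.41 and did not pass. The call was also lost when TPM was rescaled without the 20 most abundant genes (log2 change -0.84, limma adjusted p = 0.0866). Eef1a2, its muscle and neuron form, was at or under 0.25 TPM in each library and was not tested.

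The eEF1B subunits reload eEF1A with GTP, and the genes of all 3 fell. Eef1g, the gamma subunit that anchors the complex (chromosome 19, 8967041 to 8978479, plus strand), had 164 and 214 TPM in libraries labelled Tet2 KO, against 666 and 671 TPM in WT libraries, and fell by 1.83 ± 0.24 on the log2 scale (limma adjusted p = 1.37e-05). Eef1d, the delta exchange subunit, had 30.8 and 42.5 TPM under the Tet2 KO label, against 97.6 and 99.1 TPM in WT (log2 change -1.42 ± 0.22, limma adjusted p = 0.000106). Eef1b2, the alpha exchange subunit, had 174 and 229 TPM under the Tet2 KO label, against 449.8 and 442 TPM in WT (log2 change -1.16 ± 0.24, limma adjusted p = 0.000961). None of these overlapped between the groups, as was so for 87% of all genes tested. With ERCC scaling Eef1g (-1.24) and Eef1d (-0.83) still passed, while Eef1b2 (-0.56) did not. Ratios within a library do not depend on the scaling. The ratio of Eef1g to Eef1a1 was 0.0255 and 0.0278 in the libraries labelled Tet2 KO, against 0.0470 and 0.0476 in WT, and that of Eef1b2 to Eef1a1 was 0.0271 and 0.0298 in the libraries labelled Tet2 KO, against 0.0317 and 0.0314 in WT. That of Eef1d to Eef1a1 was 0.00479 and 0.00553 in the libraries labelled Tet2 KO, against 0.00689 and 0.00702 in WT. All 3 ratios were thus lower under the Tet2 KO label, that of Eef1g by most.

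Eef1e1, which encodes a scaffold protein of the multi-tRNA synthetase complex, had 14.9 and 17.9 TPM in libraries labelled Tet2 KO, against 34.3 and 40.8 TPM in WT libraries (log2 change -1.15 ± 0.24, limma adjusted p = 0.000852; -0.58 with ERCC scaling, which passed). Eef2, the translocase (chromosome 10, 81176631 to 81182498, plus strand), had 1241 and 1488 TPM under the Tet2 KO label, against 2403 and 2394 TPM in WT (log2 change -0.82 ± 0.29, limma adjusted p = 0.0308). The fall of Eef2 did not pass with ERCC scaling (-0.22), median centring or quantile normalization, nor when TPM was rescaled without the 20 most abundant genes. Its kinase Eef2k, which phosphorylates and inhibits eEF2, had 13.6 and 16.2 TPM under the Tet2 KO label, against 11.4 and 12.2 TPM in WT and was not called (log2 change 0.31 ± 0.27, limma adjusted p = 0.352). The ratio of Eef1a1 to Eef2 was 5.17 and 5.16 in the libraries labelled Tet2 KO, against 5.90 and 5.89 in WT, and so lower under the Tet2 KO label. Eef1akmt1, a lysine methyltransferase of eEF1A, fell (8.34 and 7.61 TPM under the Tet2 KO label, against 17.1 and 17.9 TPM in WT; log2 change -1.05 ± 0.28, limma adjusted p = 0.00594), a call lost with ERCC scaling, and the eEF2 methyltransferase gene Eef2kmt had 5.88 and 6.51 TPM under the Tet2 KO label, against 8.65 and 8.51 TPM in WT and was not called (log2 change -0.41 ± 0.30, limma adjusted p = 0.269).

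**Figure D2:**
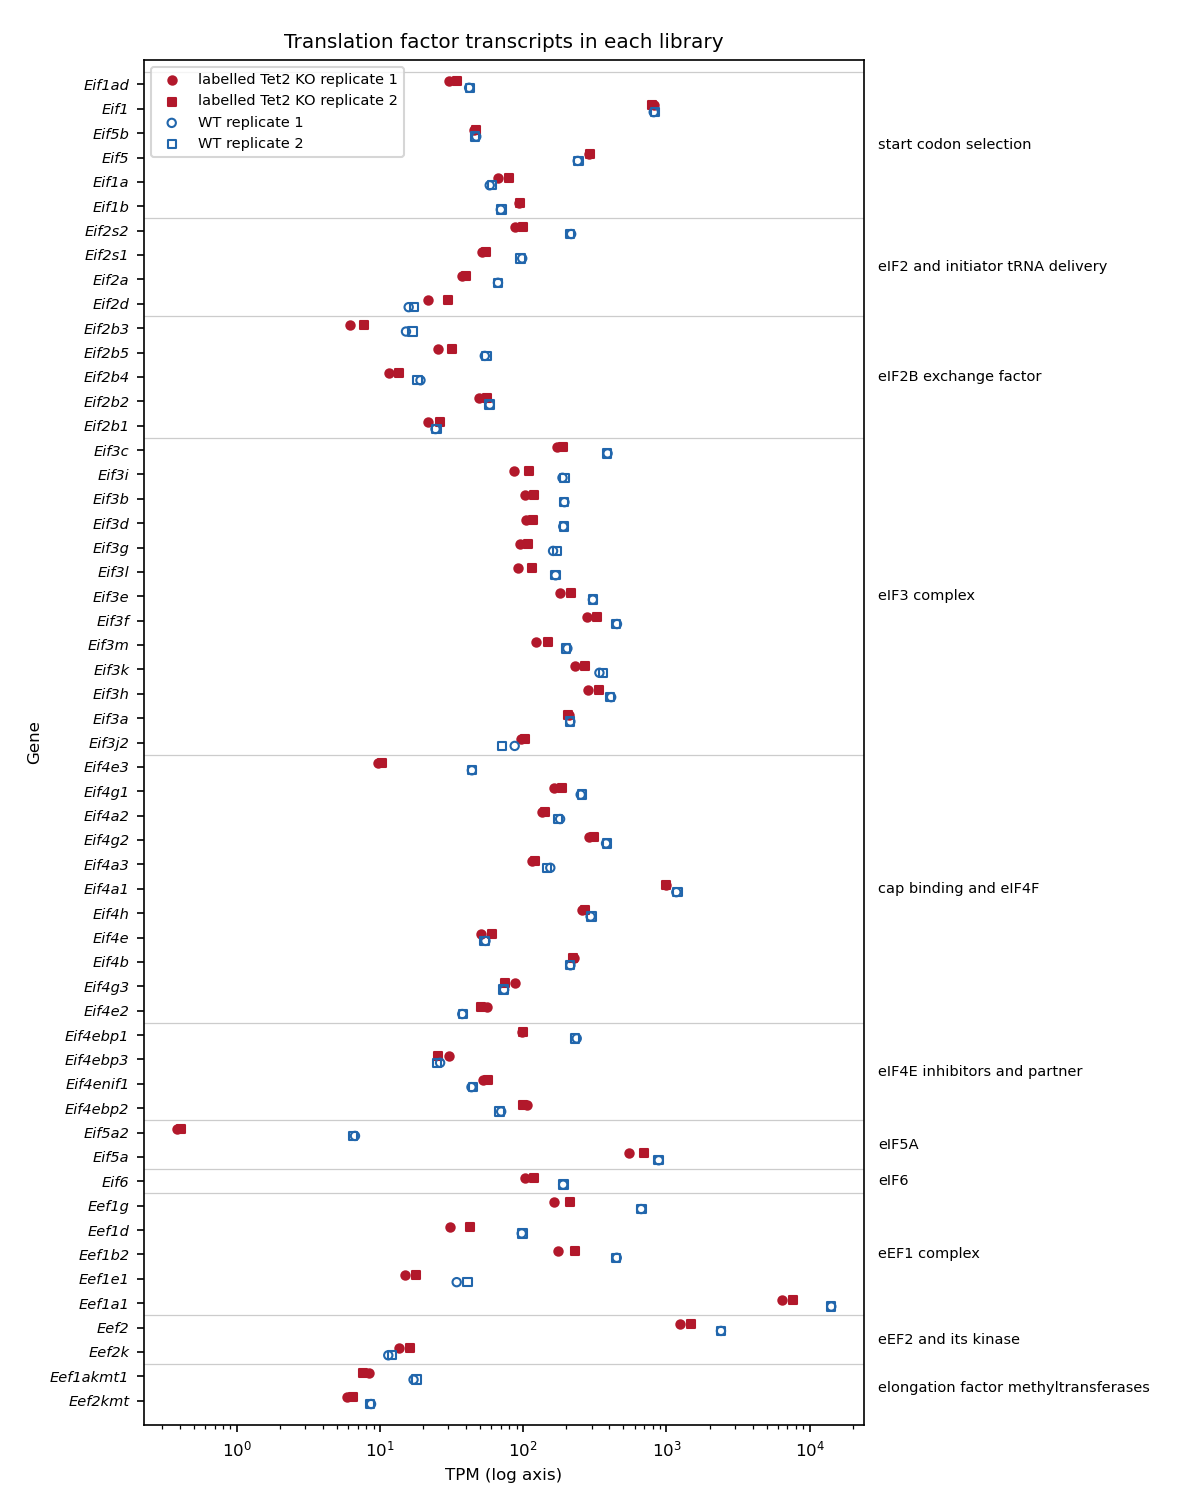
TPM (log axis) of the 55 tested genes in each library, grouped by role, with filled red symbols for the libraries labelled Tet2 KO and open blue symbols for WT. The WT symbols of most genes nearly coincide, Eef1a1 lies far to the right of all others, and Eif5a2 is under 1 TPM only in the libraries labelled Tet2 KO.

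Of 4 genes of eIF2 and initiator tRNA delivery, 3 fell, and of these only Eif2s1 and Eif2s2 encode eIF2 subunits. Among all genes tested 26.7% fell (12.5% with ERCC scaling). The sex-linked subunit gene Eif2s3x, left out of the members, was not called. It had 105 and 98.15 TPM under the Tet2 KO label, against 124 and 127 TPM in WT (log2 change -0.31 ± 0.20, limma adjusted p = 0.214). Eif2s2, the beta subunit, which binds eIF5 and eIF2B, had 88.1 and 99.0 TPM in libraries labelled Tet2 KO, against 216 and 213 TPM in WT libraries (log2 change -1.19 ± 0.20, limma adjusted p = 0.000167), and passed with ERCC scaling too (-0.60). Eif2s1, the alpha subunit whose phosphorylation shuts initiation down under stress, had 51.8 and 55.0 TPM under the Tet2 KO label, against 98.3 and 95.9 TPM in WT (log2 change -0.85 ± 0.19, limma adjusted p = 0.00146). Eif2a, an initiation factor used on a few mRNAs and distinct from eIF2 alpha, had 37.4 and 40.1 TPM under the Tet2 KO label, against 66.6 and 66.7 TPM in WT (log2 change -0.77 ± 0.19, limma adjusted p = 0.00355). The falls of Eif2s1 and Eif2a did not pass with ERCC scaling (-0.26 and -0.18). Eif2d, which acts in ribosome recycling and noncanonical initiation, was not called, at 21.7 and 29.6 TPM under the Tet2 KO label, against 15.8 and 17.3 TPM in WT (log2 change 0.58 ± 0.25, limma adjusted p = 0.066).

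eIF2B, the exchange factor that recharges eIF2 with GTP, has 5 subunits, and all 5 genes had a negative change. Eif2b3 and Eif2b5, the gamma and epsilon subunits that form the catalytic part, fell, beside 26.7% of all genes tested. Eif2b3 had 6.15 and 7.76 TPM in libraries labelled Tet2 KO, against 15.2 and 16.8 TPM in WT libraries (log2 change -1.10 ± 0.29, limma adjusted p = 0.00567), and Eif2b5 25.5 and 31.7 TPM under the Tet2 KO label, against 53.9 and 55.3 TPM in WT (log2 change -0.92 ± 0.21, limma adjusted p = 0.0021). The regulatory subunit genes were not called, and whether they differ from the other 2 was not tested. Eif2b4 had 11.6 and 13.6 TPM under the Tet2 KO label, against 19.1 and 18.2 TPM in WT, Eif2b2 49.1 and 55.8 TPM under the Tet2 KO label, against 58.4 and 58.0 TPM in WT and Eif2b1 21.6 and 26.1 TPM under the Tet2 KO label, against 24.4 and 24.7 TPM in WT. Their log2 changes were -0.54 ± 0.26, -0.15 ± 0.19 and -0.05 ± 0.23, and only Eif2b1 overlapped between the groups (87% of all genes tested did not). Neither fall passed with ERCC scaling (-0.56 and -0.34), where Eif2b1 passed as higher (0.53).

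Start codon selection genes gave 0 calls by limma among 6, where 48.8% of all genes tested passed. At an unadjusted limma p under 0.05 there was 1, against 6560 of all 11919 genes. With all 4 libraries as samples 3 were called, where 67.4% of all genes passed. Eif1, which guards start codon choice, had 825 and 793 TPM in libraries labelled Tet2 KO, against 815 and 832 TPM in WT libraries and overlapped between the groups (log2 change -0.03 ± 0.26, limma adjusted p = 0.945). Eif5, the GTPase-activating protein of eIF2, had 289 and 291 TPM under the Tet2 KO label, against 240.1 and 243 TPM in WT (log2 change 0.26 ± 0.22, limma adjusted p = 0.354). Eif1b, a close paralog of Eif1, had 92.9 and 94.5 TPM under the Tet2 KO label, against 69.7 and 70.3 TPM in WT (log2 change 0.42 ± 0.19, limma adjusted p = 0.0838). The other 3, Eif1a, Eif1ad and the subunit-joining GTPase gene Eif5b, lay between -0.37 ± 0.20 and 0.29 ± 0.19 on the log2 scale. The sex-linked Eif1ax, left out of the members, was lower. It had 73.2 and 103 TPM under the Tet2 KO label, against 142 and 148 TPM in WT (log2 change -0.74 ± 0.23, limma adjusted p = 0.0165). With ERCC scaling Eif5 (0.86), Eif1b (1.01), Eif1a (0.88) and Eif5b (0.56) passed as higher, where 41.5% of all genes tested did. The ratio of Eif5 to Eif2s2, its binding partner, was 3.28 and 2.94 in the libraries labelled Tet2 KO, against 1.11 and 1.14 in WT. Within a library, eIF5 message was thus high relative to eIF2 beta message where the label was Tet2 KO.

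The eIF3 complex is the scaffold that holds the small subunit, eIF4G and the other factors together. Of its 13 tested genes 8 fell and 0 rose, at a median of -0.64, while with ERCC scaling 0 fell, 1 (Eif3j2) rose and Eif3m stood at 0.03. Among all genes tested 26.7% fell and 22.1% rose (12.5% and 41.5% with ERCC scaling). Eif3c (chromosome 7, 126546455 to 126566411, minus strand) fell most, at 173 and 189 TPM in libraries labelled Tet2 KO, against 388 and 386 TPM in WT libraries (log2 change -1.09 ± 0.22, limma adjusted p = 0.000724). Eif3i had 86.7 and 110.0 TPM under the Tet2 KO label, against 188 and 194 TPM in WT (log2 change -0.96 ± 0.21, limma adjusted p = 0.00165), and Eif3b, the RNA-binding core scaffold, 103 and 118 TPM under the Tet2 KO label, against 194 and 193 TPM in WT (log2 change -0.80 ± 0.21, limma adjusted p = 0.00455). In each, both libraries labelled Tet2 KO were below both WT libraries, while the groups did not overlap for 87% of all genes tested.

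The remaining falls in eIF3 were smaller. Eif3d, which can itself bind the cap, had 105 and 118 TPM under the Tet2 KO label, against 190.3 and 193 TPM in WT (log2 change -0.78 ± 0.21, limma adjusted p = 0.0053). Eif3g had 94.7 and 108 TPM under the Tet2 KO label, against 162 and 173 TPM in WT (log2 change -0.72 ± 0.20, limma adjusted p = 0.00851), and Eif3l 92.2 and 114 TPM under the Tet2 KO label, against 168 and 168 TPM in WT (log2 change -0.70 ± 0.21, limma adjusted p = 0.0117). Eif3e had 180.4 and 215 TPM under the Tet2 KO label, against 306 and 308 TPM in WT (log2 change -0.64 ± 0.23, limma adjusted p = 0.0286), and Eif3m 123 and 149 TPM under the Tet2 KO label, against 203 and 199 TPM in WT (log2 change -0.57 ± 0.22, limma adjusted p = 0.0401). Eif3e and Eif3m were near the threshold: their calls were lost with median centring, quantile normalization and limma without its trend and robust estimation, and that of Eif3l with the last 2 of these. Rescaling without the 20 most abundant genes ended the calls of Eif3e, Eif3g, Eif3l and Eif3m.

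The abundant subunit genes Eif3f, Eif3k and Eif3h were not called. For each, both libraries labelled Tet2 KO lay below both WT libraries, but the groups did not overlap for 87% of all genes tested. Eif3f had 278 and 326 TPM in libraries labelled Tet2 KO, against 451 and 442 TPM in WT libraries (log2 change -0.57 ± 0.24, limma adjusted p = 0.0585), Eif3k 231 and 269.5 TPM under the Tet2 KO label, against 340.4 and 362 TPM in WT (log2 change -0.49 ± 0.23, limma adjusted p = 0.0891) and Eif3h 282 and 336 TPM under the Tet2 KO label, against 411 and 403 TPM in WT (log2 change -0.40 ± 0.24, limma adjusted p = 0.175). Eif3a, the largest core subunit, was also lower in both but by little, at 210.1 and 205 TPM under the Tet2 KO label, against 213 and 213 TPM in WT (log2 change -0.04 ± 0.22, limma adjusted p = 0.899). The ratio of Eif3a to Eif3c, its core partner, was 1.22 and 1.08 in the libraries labelled Tet2 KO, against 0.55 and 0.55 in WT, so the subunit messages were not in 1 proportion across the groups. Eif3j1 and Eif3j2 are near-identical copies, and reads can be split between them by the estimate. Eif3j1 was listed at 0.09 TPM in 3 libraries and at 12.4 TPM in WT replicate 2, where Eif3j2 was at 71.2 TPM, against 87.1 TPM in WT replicate 1. Their sum was 96.2 and 103 TPM in libraries labelled Tet2 KO, against 87.2 and 83.7 TPM in WT, and their separate values are uncertain.

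Of 11 tested genes of cap binding and eIF4F, 1 fell and 1 rose, at a median of -0.26, and with ERCC scaling 1 was lower and 4 were higher, at a median of 0.34. Among all genes tested 26.7% fell and 22.1% rose (12.5% and 41.5% with ERCC scaling). Eif4e, the cap-binding subunit (chromosome 3, 138526179 to 138559696, plus strand), had 50.6 and 60.5 TPM in libraries labelled Tet2 KO, against 54.5 and 53.5 TPM in WT libraries and overlapped between the groups (log2 change 0.04 ± 0.19, limma adjusted p = 0.895). Its paralogs moved in opposite directions. Eif4e3 (chromosome 6, 99625135 to 99666771, minus strand), a cap-binding paralog reported to counter eIF4E, had 9.68 and 10.3 TPM under the Tet2 KO label, against 43.8 and 43.7 TPM in WT (log2 change -2.03 ± 0.25, limma adjusted p = 6.62e-06; -1.46 with ERCC scaling). Eif4e2, also called 4EHP, a cap-binding repressor of translation, had 55.4 and 51.0 TPM under the Tet2 KO label, against 37.5 and 37.8 TPM in WT (log2 change 0.49 ± 0.19, limma adjusted p = 0.0455), a call lost with quantile normalization and without limma's trend and robust estimation. The ratio of Eif4e to Eif4e3 was 5.23 and 5.90 in the libraries labelled Tet2 KO, against 1.24 and 1.23 in WT. The germline form Eif4e1b was at 0 TPM in 3 libraries and at 0.10 TPM in Tet2 KO replicate 2.

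Helicases, scaffolds and cofactors of eIF4F were not called. Eif4a1, the main helicase, had 986 and 993 TPM in libraries labelled Tet2 KO, against 1173 and 1192 TPM in WT libraries (log2 change -0.26 ± 0.27, limma adjusted p = 0.454). Its paralog Eif4a2 had 135 and 142 TPM under the Tet2 KO label, against 181 and 175 TPM in WT (-0.36 ± 0.21), and Eif4a3, a core protein of the exon junction complex, 115 and 121 TPM under the Tet2 KO label, against 155 and 146 TPM in WT (-0.35 ± 0.20). Eif4g1, the main scaffold, came near the threshold at 163 and 186 TPM under the Tet2 KO label, against 252 and 256 TPM in WT (log2 change -0.54 ± 0.22, limma adjusted p = 0.0518). Eif4g2, a scaffold that does not bind eIF4E, had 289.9 and 311 TPM under the Tet2 KO label, against 379 and 385 TPM in WT (-0.35 ± 0.23), and Eif4g3 87.0 and 74.5 TPM under the Tet2 KO label, against 73.6 and 72.6 TPM in WT (0.14 ± 0.20). The helicase cofactor genes Eif4b and Eif4h had 226 and 223 TPM under the Tet2 KO label, against 214 and 213 TPM in WT (0.07 ± 0.22) and 257 and 270.0 TPM under the Tet2 KO label, against 295 and 299 TPM in WT (-0.17 ± 0.22). With ERCC scaling the changes of Eif4a1, Eif4a2, Eif4a3, Eif4g1, Eif4g2 and Eif4h turned positive without passing, and those of Eif4e, Eif4b and Eif4g3 passed as higher.

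Of the messages of inhibitory 4E-binding proteins, Eif4ebp1 fell and Eif4ebp2 rose. Eif4ebp1 (chromosome 8, 27260329 to 27276674, plus strand) had 98.1 and 100.3 TPM in libraries labelled Tet2 KO, against 236 and 230.1 TPM in WT libraries (log2 change -1.22 ± 0.20, limma adjusted p = 0.000121; -0.63 with ERCC scaling). Eif4ebp2 (chromosome 10, 61428491 to 61452661, minus strand) had 105 and 99.8 TPM under the Tet2 KO label, against 70.1 and 68.3 TPM in WT (log2 change 0.56 ± 0.19, limma adjusted p = 0.025), a rise that limma did not pass without its trend and robust estimation. Eif4ebp3 had 30.2 and 25.3 TPM under the Tet2 KO label, against 26.3 and 25.1 TPM in WT and overlapped between the groups (log2 change 0.10 ± 0.22, limma adjusted p = 0.726). The ratio of Eif4ebp1 to Eif4ebp2 was 0.93 and 1.00 in the libraries labelled Tet2 KO, against 3.37 and 3.37 in WT, so the messages were about equal where the label was Tet2 KO and Eif4ebp1 led in WT. Summed over the 3 genes, the ratio to Eif4e was 4.62 and 3.72 in the libraries labelled Tet2 KO, against 6.11 and 6.04 in WT. Eif4enif1, which carries eIF4E into the nucleus and into P-bodies, had 52.4 and 56.4 TPM under the Tet2 KO label, against 43.5 and 44.8 TPM in WT and was not called (log2 change 0.29 ± 0.19, limma adjusted p = 0.211).

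eIF5A, the hypusine-bearing factor that helps stalled ribosomes along, has a common and a rare form. The rare form, Eif5a2 (chromosome 3, 28781276 to 28798846, plus strand), had 0.38 and 0.41 TPM in libraries labelled Tet2 KO, against 6.68 and 6.48 TPM in WT libraries (log2 change -2.44 ± 0.26; -2.11 with ERCC scaling). Since a difference was built into its being tested, its values are given as a description, and on this scale the change is understated. Eif5a had 544 and 696 TPM under the Tet2 KO label, against 884 and 879 TPM in WT (log2 change -0.52 ± 0.27, limma adjusted p = 0.124), with replicate 2 nearer to WT. Eif6, which keeps the large subunit from joining too early and acts in its assembly, had 103 and 119.6 TPM under the Tet2 KO label, against 190.0 and 191 TPM in WT (log2 change -0.77 ± 0.21, limma adjusted p = 0.00597), a call lost with ERCC scaling (-0.18).

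**Figure D3:**
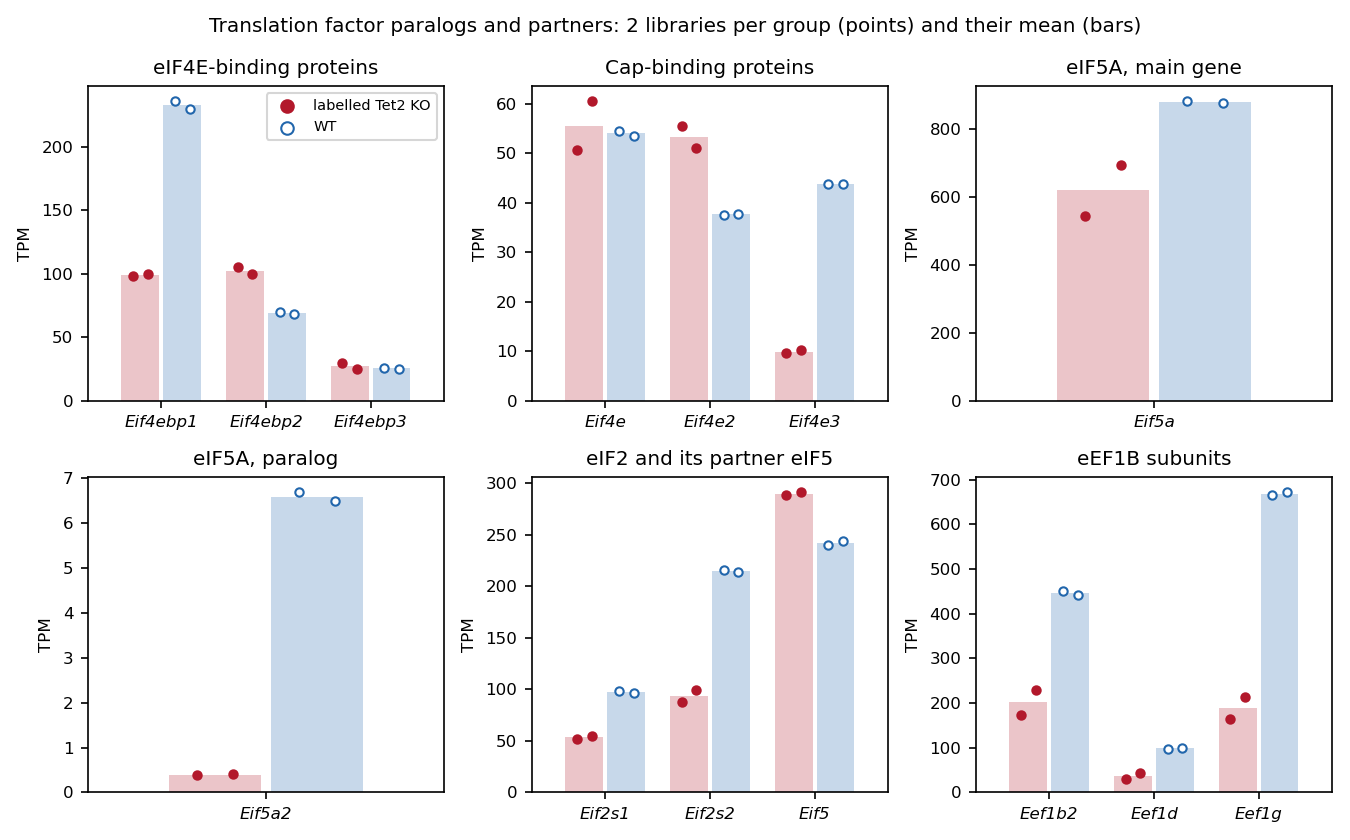
TPM in each library (points) and group mean (bars) of paralogs and partners, with the libraries labelled Tet2 KO on the left of each pair and WT on the right; each panel has its own axis from 0. Eif4ebp1 is low and Eif4ebp2 high where the label is Tet2 KO, Eif4e3 is low beside Eif4e, and the points of Eif4e and Eif4ebp3 overlap between the groups.

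Summed by class, the messages differed in how far they were from WT. The eEF1 genes summed to 6798 and 8186 TPM in libraries labelled Tet2 KO, against 15417 and 15359 TPM in WT, a log2 ratio of -1.04 (-0.45 with ERCC scaling). The genes of eIF2 and initiator tRNA delivery gave -0.90 (-0.31), the eIF3 genes -0.58 (0.01) and cap binding with eIF4F -0.25 (0.35). Start codon selection gave 0.07 (0.67), the only class with a positive ratio on the TPM scale. This class leaves out the sex-linked Eif1ax, which was lower under the Tet2 KO label. These sums follow their most abundant gene and are given without a test.

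**Figure D4:**
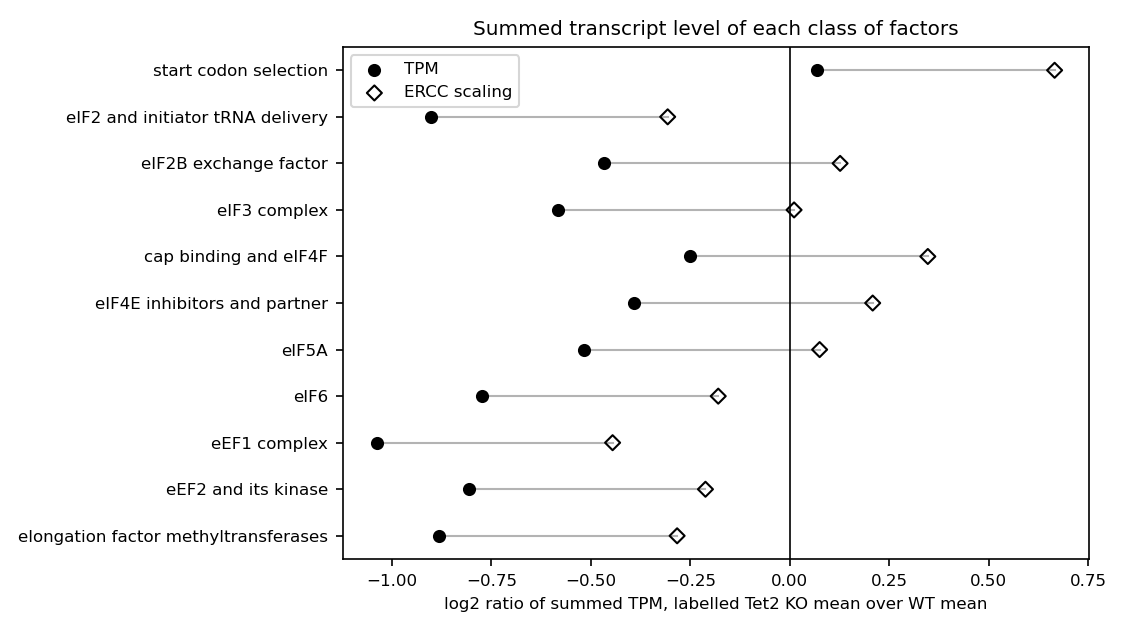
Log2 ratio of summed TPM, mean of the libraries labelled Tet2 KO over the WT mean, for each class of factors (filled points), with the same ratio after ERCC scaling (open diamonds). The eEF1 complex lies farthest to the left and start codon selection farthest to the right on both scales.

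Members known to be TOP messages were 10, namely Eef1a1, Eef1a2, Eef1b2, Eef1d, Eef1g, Eef2, Eif3e, Eif3f, Eif3h and Eif4b. Of the 9 tested, 6 fell and 0 rose, at a median of -0.82, and with ERCC scaling 2 were lower and 1 higher, at a median of -0.22. Among the other 46 tested members, 18 fell and 2 rose, at a median of -0.39, and with ERCC scaling 5 were lower and 14 higher, at a median of 0.16. Eif5a2, which had to differ, is among these falls on both scales. The shares over all genes tested were 26.7% lower and 22.1% higher (12.5% and 41.5% with ERCC scaling). Not every TOP message passed as lower: Eif4b (0.07 ± 0.22), Eif3h (-0.40 ± 0.24) and Eif3f (-0.57 ± 0.24) were not called. Of the 9 tested TOP messages 8 had a negative change, all but Eif4b, against 34 of the other 46. Eif3c and Eif3b, which are not in the TOP list, fell by 1.09 ± 0.22 and 0.80 ± 0.21. The difference between the lists was not tested.

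Promoter sequence was read for 43 of the 58 members from RefSeq (GRCm38.p6), as the 250 bases before each annotated start, in 57 windows. Motifs were chosen after the values were seen. The E-box CACGTG, bound by MYC and other factors, was found in a window of 11 members (25.6% of those matched, against 6.86% of all genes with a window). Of these, 2 fell (Eef2 and Eif5a2) and 0 rose, but Eif5a2 passed the filter through WT alone and so had to differ. Of the 30 tested members with a window but no such match, 13 fell and 2 rose. CACGTG reads the same on both strands. Letters of the ETS type, CCGGAAG on either strand, were found in a window of 11 members too (25.6%, against 7.83% of all genes). Of these, 6 fell, again with Eif5a2 among them, and 2 rose. Of the 30 without them 9 fell and 0 rose. Eif1b, Eif5a and Eif5a2 held both motifs. The motif shares of all genes cover 27025 genes, many of them not tested here. Members had 57 windows for 43 genes, against 32851 windows for those 27025 genes. The shares are thus not on equal terms. A match is a description of the letters, and no factor binding was measured. Myc message stood at 12.2 and 13.8 TPM in libraries labelled Tet2 KO, against 57.5 and 57.0 TPM in WT libraries (log2 change -2.06 ± 0.23, limma adjusted p = 2.73e-06), and its part in these values was not tested. The windows shown are those of Eif4e, which was not called, Eif5a2, which had to differ, and Eef2, which fell. Those of Eif3c, which fell most in eIF3, and Eif4ebp2, which rose, follow them. Capitals mark CACGTG, or CCGGAAG and its reverse complement CTTCCGG.
Eif4e (GRCm38, chr3:138527018-138527267, plus strand): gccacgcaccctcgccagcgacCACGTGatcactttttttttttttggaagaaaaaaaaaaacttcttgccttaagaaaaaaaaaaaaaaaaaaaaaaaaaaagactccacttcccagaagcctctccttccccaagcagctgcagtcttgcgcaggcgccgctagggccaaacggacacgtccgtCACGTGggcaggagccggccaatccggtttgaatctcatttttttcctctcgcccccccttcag
Eif5a2 (GRCm38, chr3:28781027-28781276, plus strand): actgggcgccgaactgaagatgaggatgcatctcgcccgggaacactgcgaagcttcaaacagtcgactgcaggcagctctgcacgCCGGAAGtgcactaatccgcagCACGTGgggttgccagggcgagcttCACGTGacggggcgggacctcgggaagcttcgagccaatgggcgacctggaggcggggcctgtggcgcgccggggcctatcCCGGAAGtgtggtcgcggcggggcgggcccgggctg
Eef2 (GRCm38, chr10:81176381-81176630, plus strand): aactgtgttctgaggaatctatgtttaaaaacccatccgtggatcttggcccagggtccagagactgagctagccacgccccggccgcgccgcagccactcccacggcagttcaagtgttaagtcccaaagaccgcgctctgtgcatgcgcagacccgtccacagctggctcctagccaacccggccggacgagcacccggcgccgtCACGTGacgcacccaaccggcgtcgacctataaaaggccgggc
Eif3c (GRCm38, chr7:126566367-126566616, minus strand): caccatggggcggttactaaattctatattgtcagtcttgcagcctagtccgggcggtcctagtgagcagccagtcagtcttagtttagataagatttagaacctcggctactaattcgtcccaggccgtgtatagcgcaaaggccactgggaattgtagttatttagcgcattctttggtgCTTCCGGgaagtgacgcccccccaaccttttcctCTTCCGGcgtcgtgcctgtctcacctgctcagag
Eif4ebp2 (GRCm38, chr10:61452670-61452919, minus strand): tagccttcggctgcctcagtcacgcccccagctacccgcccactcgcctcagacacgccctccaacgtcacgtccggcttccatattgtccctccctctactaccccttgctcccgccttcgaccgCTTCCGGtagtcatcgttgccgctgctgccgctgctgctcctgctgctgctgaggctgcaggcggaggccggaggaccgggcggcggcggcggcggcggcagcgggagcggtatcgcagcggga
In Eif4e the E-boxes begin 228 and 64 bases before an annotated start that lies inside the gene span, downstream of its first base. The other Eif4e window, at the start of that span (chr3:138525941 to 138526190), holds no E-box. In Eif5a2 the E-boxes begin 142 and 117 bases before the annotated start, and in Eef2 43 bases. Members holding an E-box included Eif4a1, Eif4g1, Eif4h and Eif5a, all of them without a call.

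Other genes of translation control are given beside the shares of all genes tested, of which 22.1% rose and 26.7% fell (41.5% and 12.5% with ERCC scaling). Of 17 genes of mTORC1 and cap signalling 5 rose and 4 fell (9 and 2 with ERCC scaling), close to those shares on the TPM scale. Pdcd4, an inhibitor of eIF4A, had 50.6 and 51.2 TPM in libraries labelled Tet2 KO, against 9.61 and 9.94 TPM in WT libraries (log2 change 2.27 ± 0.21, limma adjusted p = 2.96e-07). Mknk2, a kinase of eIF4E, had 463 and 443 TPM under the Tet2 KO label, against 183 and 181 TPM in WT (log2 change 1.31 ± 0.23, limma adjusted p = 0.000226). Larp1, which binds TOP messages, had 65.6 and 76.0 TPM under the Tet2 KO label, against 158 and 156 TPM in WT (log2 change -1.14 ± 0.20, limma adjusted p = 0.000191), and Ddit4, an inhibitor of mTORC1, 109 and 83.4 TPM under the Tet2 KO label, against 228 and 215 TPM in WT (log2 change -1.20 ± 0.22, limma adjusted p = 0.000363). Pdcd4 thus rose while its target Eif4a1 was not called, and with ERCC scaling Pdcd4 (2.83), Mknk2 (1.91) and Larp1 (-0.55) passed, whereas Ddit4 (-0.61) did not.

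Of 10 genes of eIF2 kinases, phosphatase subunits and their downstream factors, 2 rose and 3 fell (4 and 1 with ERCC scaling), where 48.8% of all genes tested passed. Ddit3, a factor of the stress response that follows eIF2 phosphorylation, had 180.2 and 162 TPM in libraries labelled Tet2 KO, against 42.5 and 41.2 TPM in WT libraries (log2 change 2.01 ± 0.20, limma adjusted p = 6.12e-07). Eif2ak3, the kinase of endoplasmic reticulum stress also called PERK, had 37.1 and 36.4 TPM under the Tet2 KO label, against 12.2 and 12.4 TPM in WT (log2 change 1.51 ± 0.22, limma adjusted p = 3.73e-05). The interferon-induced kinase gene Eif2ak2, also called PKR, had 12.8 and 16.2 TPM under the Tet2 KO label, against 134 and 133 TPM in WT (log2 change -3.13 ± 0.22, limma adjusted p = 1.18e-08), and Eif2ak4, the amino acid sensor GCN2, 9.11 and 8.22 TPM under the Tet2 KO label, against 16.9 and 16.1 TPM in WT (log2 change -0.86 ± 0.28, limma adjusted p = 0.0191). The kinases of eIF2 were thus not moved together, and the fall of Eif2ak4 did not pass with ERCC scaling (-0.31).

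Genes of termination, rescue and recycling fell in 4 of 8 tested cases and rose in 0 (0 and 2 with ERCC scaling). Abce1, which splits ribosomes after termination, had 45.0 and 55.2 TPM in libraries labelled Tet2 KO, against 98.2 and 102 TPM in WT libraries (log2 change -0.99 ± 0.20, limma adjusted p = 0.000615), and Gspt1, the release factor eRF3a, 38.4 and 44.9 TPM under the Tet2 KO label, against 73.2 and 70.7 TPM in WT (log2 change -0.78 ± 0.19, limma adjusted p = 0.00356). Enzymes that make hypusine on eIF5A or diphthamide on eEF2 fell in 5 of 9 cases and rose in 0 (2 and 2 with ERCC scaling). Dph6 had 1.77 and 2.48 TPM under the Tet2 KO label, against 9.11 and 9.09 TPM in WT (log2 change -1.70 ± 0.31, limma adjusted p = 0.00033) and Dph1 3.99 and 5.36 TPM under the Tet2 KO label, against 15.3 and 15.4 TPM in WT (log2 change -1.54 ± 0.31, limma adjusted p = 0.000688), both in the diphthamide pathway. With ERCC scaling Abce1 (-0.41) and Gspt1 (-0.19) did not pass, and Dph6 (-1.23) and Dph1 (-1.01) did.

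Selenocysteine insertion genes gave 1 rise and 3 falls among 7 (3 and 1 with ERCC scaling). Sephs2, which makes selenophosphate, had 424 and 288 TPM in libraries labelled Tet2 KO, against 72.8 and 73.1 TPM in WT libraries (log2 change 2.25 ± 0.25, limma adjusted p = 9.65e-06). Eefsec, the elongation factor for selenocysteine, had 3.64 and 4.13 TPM under the Tet2 KO label, against 8.42 and 9.21 TPM in WT (log2 change -1.01 ± 0.31, limma adjusted p = 0.013), and Pstk, a kinase of selenocysteine tRNA, 1.81 and 2.19 TPM under the Tet2 KO label, against 6.19 and 5.71 TPM in WT (log2 change -1.21 ± 0.30, limma adjusted p = 0.00338). Sephs2 was high in both libraries labelled Tet2 KO but unlike between them, and with ERCC scaling the fall of Eefsec (-0.50) did not pass. Mitochondrial translation factors fell in 3 of 10 cases and rose in 0, and with ERCC scaling 0 of them passed either way. They included Tufm, the mitochondrial elongation factor Tu, at 33.7 and 40.00 TPM under the Tet2 KO label, against 63.2 and 65.9 TPM in WT (log2 change -0.80 ± 0.20, limma adjusted p = 0.00355) and Mtif2 at 10.2 and 13.2 TPM under the Tet2 KO label, against 21.6 and 20.02 TPM in WT (log2 change -0.79 ± 0.27, limma adjusted p = 0.0248), neither of which passed with ERCC scaling (-0.21 and -0.23). Genes of poly(A) binding and helper helicases gave 0 calls by limma among 8, with 2 at an unadjusted p under 0.05, and 4 with all 4 libraries as samples. Over all genes tested, 6560 of 11919 had an unadjusted limma p under 0.05, and 67.4% passed with all 4 libraries as samples.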

How the data were processed

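RNA was measured in 2 libraries labelled Tet2 KO and 2 labelled WT. The authors deposited TPM values, which sum to 1000000 per library over genes and 92 ERCC spike-ins; the submitters' processing notes name STAR, RSEM and mm10 without versions, and which annotation was used is not stated there. Spike-ins were left out of tests. Depth was estimated from GENCODE M21 genes with a single basic transcript of 600 to 2500 nt, whose low TPM values times length minus 200 nt fall on whole multiples of 1 read (76.0% to 79.5% within 0.2). It is approximate, and no intervals are given. Tests used limma (3.58.1, R 4.3.3) and log2(TPM + 1) values, with trend and robust estimation, over genes with at least 1 TPM in at least 2 libraries. Adjusted p-values are two-sided Benjamini-Hochberg values over 11919 genes, with a threshold of 0.05. Fold changes on this scale understate low genes. Errors are limma's moderated SEs, and these and the p-values draw largely on variance shared across genes, as each gene alone leaves 1 residual degree of freedom. The mean of the WT libraries was 1 sample. The fit was also run on simulated data that gave every gene the same spread, unlike these data, so it does not show the error rate here. Members and gene lists were chosen with earlier results of these data known. Values per library are given for members past the threshold or with a mean of at least 200 TPM, and up to 2 genes per direction for other lists. The 14 alternatives are given in the closing section. Coordinates are those of GENCODE M21 on mm10, counted from 1.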

Additional observations from a re-analysis of the deposited data

How the results depend on the processing

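Of the 14 alternatives, ERCC scaling, no filter on low values and leaving out a library labelled Tet2 KO were among those that moved a count of calls by over 1.5 times, and the cause was not tested except where given. Against 2629 genes higher and 3182 lower, no filter gave 246 and 1798, and ERCC scaling 4942 and 1492. Against 2 members higher and 24 lower, no filter gave 0 and 1 (Eif3j1), and ERCC scaling 15 and 7. Members higher were 6 with both WT libraries as samples, 1 with quantile normalization, 4 when rescaled without the 20 most abundant genes and 0 without limma's trend and robust estimation, where members lower were 35, 20, 18 and 21. Leaving out 1 library gave 2651 to 4321 genes higher, 3192 to 5674 lower, 2 to 10 members higher and 24 to 39 lower. The highest of these came without a library labelled Tet2 KO, where both WT libraries served as samples and the lone one is assumed to vary as they do, which by construction leaves only their small spread: 9 members higher and 37 lower without replicate 1, and 10 and 39 without replicate 2. The groups share replicate numbers, but deviations of same-numbered libraries correlated at -0.01 over all genes, so the numbers were not taken as pairs. The fit with a replicate block (4 libraries) gave 3495 genes higher and 4461 lower, and 7 members higher and 34 lower, against 3520, 4517, 6 and 35 without the block. With ERCC scaling 19 members turned positive on the log2 scale: Eif3m (0.027), which had been called lower, and, not called, Eef2kmt (0.11), Eif1 (0.57), Eif1ad (0.21), Eif2b1 (0.53), Eif2b2 (0.44), Eif2b4 (0.021), Eif3a (0.56), Eif3f (0.026), Eif3h (0.19), Eif3k (0.10), Eif4a1 (0.34), Eif4a2 (0.24), Eif4a3 (0.25), Eif4g1 (0.055), Eif4g2 (0.25), Eif4h (0.42), Eif5a (0.079) and Eif5b (0.56). Median centring gave Eif1 0.073, Eif2b1 0.053, Eif3a 0.061 and Eif5b 0.077. Quantile normalization gave Eif1 0.080, Eif2b1 0.030, Eif3a 0.024, Eif4a1 0.063 and Eif5b 0.0035. Rescaling without the 20 most abundant genes gave Eif1 0.15, Eif2b1 0.12, Eif2b2 0.021, Eif3a 0.14 and Eif5b 0.15. Over the fits that left out 1 library, log2 changes ranged from -0.18 to 0.087 for Eif2b1, from -0.018 to 0.23 for Eif4ebp3, from -0.048 to 0.0047 for Eif5b, from -0.054 to 0.0028 for Eif1 and from -0.092 to 0.16 for Eif4e. Of the 26 calls, ERCC scaling ended 17, median centring 3, quantile normalization 5, rescaling 6 and fitting without trend and robust estimation 5. A pseudocount of 0.1 TPM, a filter of 5 TPM, both WT libraries as samples, the block and leaving out 1 library each ended 0 of them, but those that use the WT libraries as samples take in their small spread and show nothing of stability. Depth is an estimate, and values under 1 TPM (Eif5a2 in libraries labelled Tet2 KO, Eif4e1b and Eef1a2) rest on few reads.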
